A study of Mus musculus with 2 samples.

Results

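Imprinted genes of the mouse were described in 2 breast tumour libraries. The set was 38 genes known to be expressed mainly from the copy inherited from 1 parent, chosen by name and matched by gene symbol. Of these, 37 were among the 35602 symbols of the count table, and Dhcr7os was dropped because its symbol was not in the table. The set was proposed with results of these same libraries in view, so every value below is a description and no test was made. A single library came from tumour tissue of mice injected intraperitoneally with a PD-1 inhibitor (the inhibitor-only library) and another from mice that had this injection plus acupuncture (the acupuncture library), and both measured messenger RNA. The inhibitor blocks the receptor that restrains activated T cells, and both groups received it, so neither library is untreated. The labels used here do not state strain, age, sex, tumour line, dose or how many mice stand behind each library. With no replicates, a difference has no replicate check, and every interval is an exact 95% interval of the binomial split of counts, which covers counting error only.

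Genomic imprinting marks the DNA of certain genes differently in egg and sperm, mostly by methylation of control regions, so that only the maternal or only the paternal copy is transcribed in the offspring. The genes lie in clusters in which a long noncoding RNA transcribed from 1 parental copy often silences neighbours on that copy. Many paternally expressed genes, such as Igf2, promote fetal growth, and many maternally expressed ones, such as Cdkn1c, Grb10 and Igf2r, restrain it. Many are abundant in the fetus and placenta, decline after birth and persist in muscle, fat, brain or stem cells. Read counts per gene do not separate the parental copies, so "maternally" and "paternally expressed" are background labels here and no allele was measured.

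Total counts were 105728292 in the inhibitor-only library and 60752043 in the acupuncture library, and levels are counts per 1000000 (CPM) of library sizes scaled by trimmed mean of M-values (TMM) factors. Epithelial markers, which check the labelled breast tumour, were all present, with 11 of 11 past the count minimum and summed levels of 4268 CPM and 2948 CPM. Markers of other tissues differed between the libraries and stand beside every result below. Of 12 adipocyte markers 11 were higher with acupuncture (summed 569.6 and 2108 CPM), as were 13 of 13 of skeletal muscle (242 and 2292 CPM), 8 of 8 of lymph node (2.54 and 206 CPM) and 8 of 8 of B cells (3.12 and 120.4 CPM). Of these lists, lymph node Chst4 and B cell Fcmr were at 0 counts in the inhibitor-only library. Fibroblast markers had 2 of 10 higher and none lower (7538 and 10304 CPM), and epithelial markers had 2 of 11 lower and none higher. The part of these tissues in the differences of imprinted genes was not tested. In bulk tissue, fewer cells of a type and less RNA per cell cannot be told apart.

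Sequences are shown for H19 and for those listed members whose RefSeq promoter held the hexamer described below. H19, the member with the largest difference in counts, is a long noncoding RNA from which the microRNA miR-675 is cut. Its mature arms, from RefSeq (GRCm38.p6, minus strand, chr7:142577112-142577133 for the 5p arm and chr7:142577078-142577099 for the 3p arm), are given 5′ to 3′ with the seed, bases 2 to 8, in capitals. The libraries measured the host RNA and not the mature microRNA.
mmu-miR-675-5p: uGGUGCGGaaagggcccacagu
mmu-miR-675-3p: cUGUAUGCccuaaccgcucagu

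Imprints are kept in the early embryo by ZFP57, a zinc finger protein that binds the methylated hexamer TGCCGC. RefSeq windows of 300 bases, from 250 before to 50 after a start site, were found for 28 of the 37 members, 43 windows in all. H19, Peg13, Peg10 and Cdkn1c had no entry. The hexamer, searched as TGCCGC and as GCGGCA for the other strand, stood in 11 of the 43 windows (25.6%), against 11.6% of 32817 windows of all genes. The members' windows were also richer in CG dinucleotides, with a median of 13 against 7, and the hexamer itself holds 1. It was found for 10 of the 28 genes, Grb10, Igf2, Meg3, Mest, Nap1l5, Nnat, Plagl1, Snrpn, Zdbf2 and Zim1. Windows of a gene can overlap, as those of Mest with the hexamer do, so the 43 are not independent. The 3 windows printed belong to genes that were at least 2-fold higher with acupuncture, with the hexamers in capitals (GRCm38.p6, 5′ to 3′). They are chr10:13090582-13090881 on the plus strand for Plagl1, chr6:58907077-58907376 on the minus strand for Nap1l5, and chr1:63200108-63200407 on the plus strand for Zdbf2, whose other window held none. The other genes with the hexamer all lay within 2-fold under TMM scaling, and their windows were not printed. Whether the hexamer goes with a higher level was not tested. A match is a description of letters and not a bound site.
Plagl1: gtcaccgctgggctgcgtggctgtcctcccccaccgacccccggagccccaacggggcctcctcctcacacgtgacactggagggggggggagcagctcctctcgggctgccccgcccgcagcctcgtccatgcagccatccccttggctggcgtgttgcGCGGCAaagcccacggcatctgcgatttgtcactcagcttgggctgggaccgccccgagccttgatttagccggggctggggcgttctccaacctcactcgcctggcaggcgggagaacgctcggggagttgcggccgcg
Nap1l5: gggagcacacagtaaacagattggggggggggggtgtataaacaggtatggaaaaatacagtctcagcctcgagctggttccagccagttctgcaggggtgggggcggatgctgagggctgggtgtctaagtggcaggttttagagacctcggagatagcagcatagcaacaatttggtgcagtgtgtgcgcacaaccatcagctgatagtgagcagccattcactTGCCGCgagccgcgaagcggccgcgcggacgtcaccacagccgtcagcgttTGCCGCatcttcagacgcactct
Zdbf2: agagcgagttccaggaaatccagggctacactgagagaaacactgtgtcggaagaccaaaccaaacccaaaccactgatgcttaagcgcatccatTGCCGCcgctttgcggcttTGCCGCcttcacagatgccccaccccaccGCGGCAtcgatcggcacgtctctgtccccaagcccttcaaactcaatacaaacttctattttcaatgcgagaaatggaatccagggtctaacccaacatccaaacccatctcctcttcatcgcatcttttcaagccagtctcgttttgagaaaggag

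To be listed, a gene needed a combined count of at least 20, a CPM ratio (acupuncture over inhibitor only) of at least 2-fold in either direction and an interval that excluded 1. The rest of the genes past that minimum lay between. Of the 37 members, 35 passed the minimum. Usp29 (6 and 7 counts) and Magel2 (0 and 0 counts) did not. Of the 35, 6 were listed as higher (17.1%), against 9.21% of the 18687 genes past the minimum, and 1 was listed as lower (2.86%), against 4.90%. In either direction the share over all genes was 14.1%. Peg13, Zdbf2 and Nap1l5 passed the minimum only through the acupuncture library, in which they are higher, so the count of 6 supports nothing by itself. The intervals alone excluded 1 on the higher side for 13 members (37.1%, against 35.1% of all genes) and on the lower side for 10 (28.6%, against 34.8%). The median log2 ratio was 0.10 over the members and 0.0003 over all genes, and the shares by interval alone lay near the background. With the epithelial markers set to a median of 0, a scaling chosen after the data were seen, 16.6% of all genes were higher and 2.24% lower, and 10 members were higher and 1 lower.

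The members just inside the limit were Peg10 at 2.24-fold higher and Plagl1 at 2.48-fold. Just outside it stood Kcnq1 at 1.97-fold lower, and Dlk1, with 9 and 11 counts, at 1.98-fold higher with an interval that includes 1.

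**Figure D1:**
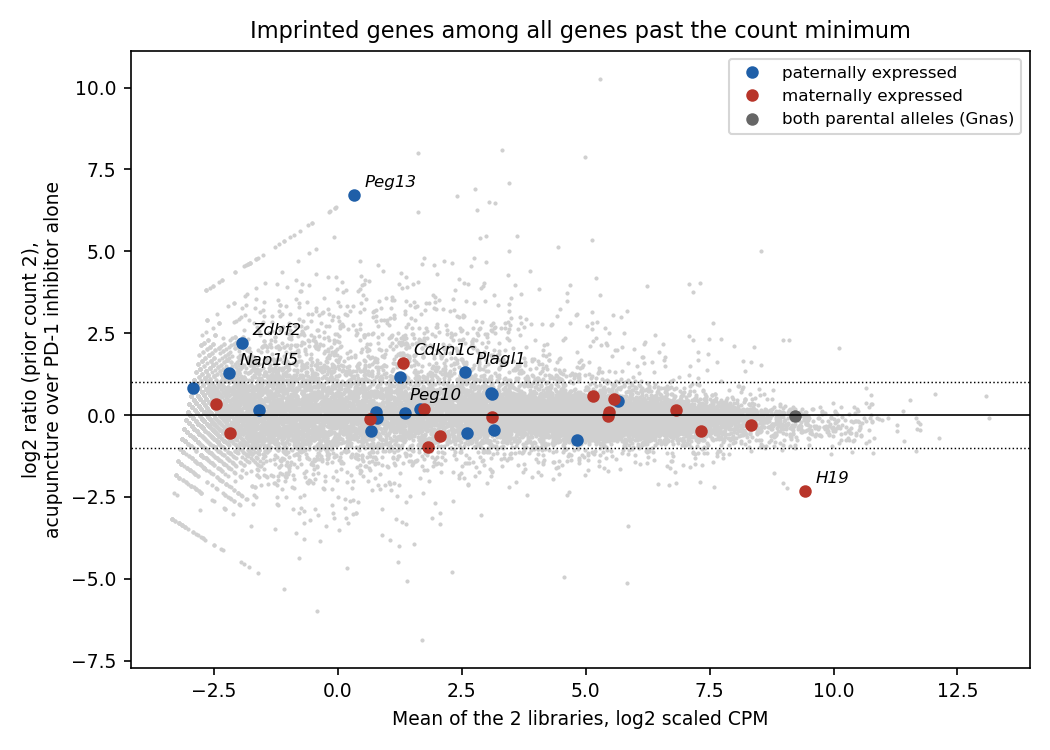
Every gene past the count minimum (grey) and the 35 imprinted genes (coloured by the allele known to be expressed), with the mean level of the 2 libraries in log2 scaled CPM on the x axis and the log2 ratio with a prior count of 2 on the y axis. H19 lies alone at the lower right, Peg13 lies on the upper edge formed by genes at 0 counts in the inhibitor-only library, and most other members lie between the dotted 2-fold lines.

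Paternally and maternally expressed genes were counted apart. Of these, Trappc9, Zim1, Asb4, Ascl2, Kcnq1, Cd81, Ube3a and, on the paternal side, Ddc are imprinted in certain tissues only. Whether they were imprinted in these tumours was not measured. Of 18 paternally expressed members past the minimum, 5 were listed as higher and none as lower, against 9.21% and 4.90% of all genes. Those higher were Peg13, Zdbf2, Nap1l5, Plagl1 and Peg10, of which the first 3 passed the minimum only through the library in which they are higher, so the count supports nothing by itself. The median log2 ratio of the paternally expressed members was 0.30, and it was 0.13 with a minimum of 100 counts. Of 16 maternally expressed members, 1 was listed as higher (Cdkn1c) and 1 as lower (H19), with a median of -0.05. Scaling by total counts gave medians of 0.40 for the paternally and 0.05 for the maternally expressed members, and scaling to the epithelial markers gave 0.75 and 0.40. The summed level of the paternally expressed genes was 126 CPM in the inhibitor-only library and 138 CPM in the acupuncture library. That of the maternally expressed genes was 1984 and 982 CPM, and without H19 it was 837 and 753 CPM. Gnas was placed in neither class, because its locus gives maternal, paternal and biallelic transcripts. Whether the classes differ was not tested.

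H19 and Igf2 share enhancers, and a control region between them directs these to H19 on the maternal copy and to Igf2 on the paternal copy. H19 had 117126 counts in the inhibitor-only library and 14393 in the acupuncture library, or 1147 and 229 CPM. Its level was 5.02-fold lower with acupuncture (4.93 to 5.10), and its share of all counts was 0.111% and 0.0237%. Of the 157 genes whose mean level was at least that of H19, none had a lower log2 ratio, the lowest of them being -1.20 against -2.33 for H19. That comparison was chosen after the values were seen. Igf2, the growth factor, had 183 and 106 counts, or 1.79 and 1.68 CPM, a ratio of 0.940 (0.733 to 1.20), an interval that includes 1. The neighbours therefore differed unequally, and the H19 to Igf2 count ratio, which does not depend on library scaling, was 640.03 and 136, or 4.71-fold lower with acupuncture (3.67 to 6.02).

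H19 was abundant where Igf2 was scarce. Per kilobase of exon, using merged GENCODE M21 exons, the level of H19 was 466 CPM per kb in the inhibitor-only and 93.0 in the acupuncture library, against 0.313 and 0.294 for Igf2. The epithelial markers were lower in the same library as H19, at a median log2 ratio of -0.45, with Krt8 at 1564 and 1060 CPM and Epcam at 308 and 249.8 CPM. Endothelial markers were also lower there, at a median log2 ratio of -0.59. With the libraries scaled so that the epithelial median was 0, H19 was 3.68-fold lower. Markers of muscle progenitors, cells in which H19 is known to be expressed, went both ways. Past the minimum, 3 of 5 were lower and 2 higher, against 4.90% and 9.21% of all genes. Mymk and Myod1 passed it only with counts of the library in which each is higher, so these counts support nothing by themselves. The lower ones were Myog (2.11 and 0.604 CPM), Cdh15 (4.83 and 1.88 CPM) and Mymk (21 and 0 counts). Those higher were Myf6 (1.05 and 5.24 CPM) and Myod1 (13 and 19 counts). The list summed to 8.45 and 8.26 CPM, with Myf6 the largest part in the acupuncture library, where 13 of 13 skeletal muscle markers were also higher. Of that list Pax7 was at 0 counts in the inhibitor-only library, and Mymk and Mymx at 0 with acupuncture.

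Peg13, a paternally expressed noncoding RNA abundant in brain, lies within Trappc9. Both are transcribed from the same strand in GENCODE M21, so strand cannot tell their reads apart where they overlap. Peg13 had 0 counts in the deeper, inhibitor-only library and 158 in the library with acupuncture (2.51 CPM). With its 0 set to a floor of 3 counts, 0.0294 CPM, it was 85.5-fold higher with acupuncture. The exact interval, taken from the 0 itself, began at 68.7-fold. Only 7 of the 18687 genes had a larger log2 ratio with a prior count of 2. Trappc9, a subunit of a membrane trafficking complex, had 4505 and 2695 counts, or 44.1 and 42.8 CPM, at 0.971 times (0.925 to 1.02). The host gene was thus at close to the same level in both libraries, while Peg13 was detected in 1 of them. Neuronal markers were higher in that library, with summed levels of 2.54 and 6.28 CPM. Of the 8 named, 3 fell below the minimum, and 4 of the other 5 were listed as higher, against 9.21% of all genes. Some of these rest on few reads, such as Syt1 (4 and 16 counts) and Nefl (11 and 16). Syt1 and Nefl reached the minimum of 20 only with counts of the library in which they are higher. The count of 4 therefore supports nothing by itself. Tubb3, the most abundant of that list with 179 and 217 counts, fell short of 2-fold. Of that list Snap25 was at 0 in the inhibitor-only library and Elavl4 at 0 in both. All 8 lymph node and all 8 B cell markers were higher there too, and which cells held Peg13 was not tested.

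**Figure D2:**
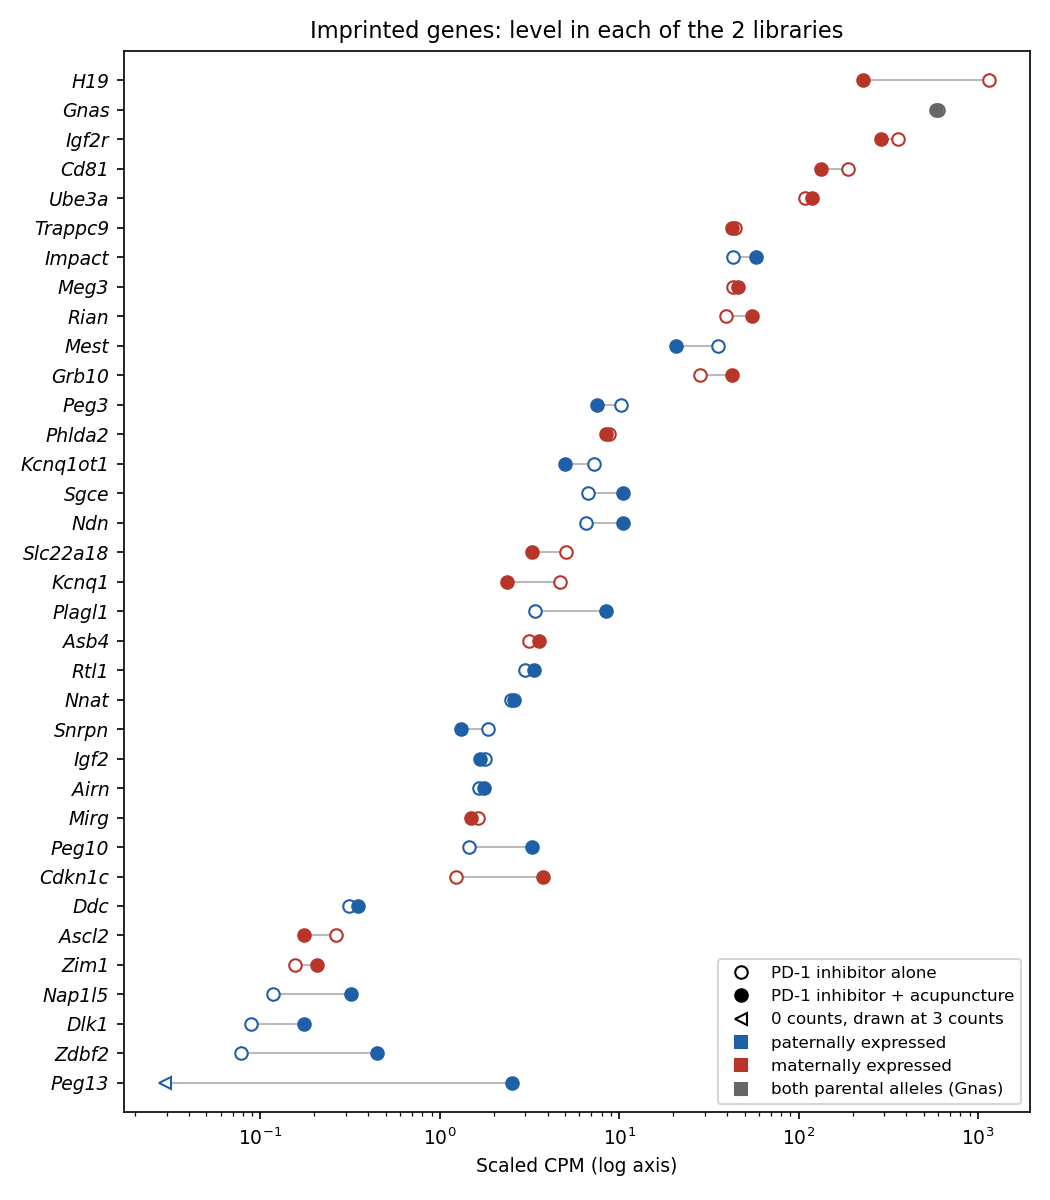
Scaled CPM on a log axis for the 35 imprinted genes past the count minimum, with open symbols for the inhibitor-only library and filled symbols for the acupuncture library, 1 library each, coloured by the allele known to be expressed. The long bars belong to H19 (1147 and 229 CPM), to Peg13 (0 and 2.51 CPM, with the zero drawn at 3 counts) and to Zdbf2. Gene length is not taken into account, so levels are to be compared along a row and not between rows.

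The cluster silenced by Kcnq1ot1, a paternally transcribed noncoding RNA, held 7 members. Of these, 1 was listed as higher, against 9.21% of all genes. The other 6 had ratios under 1, as had 9333 of the 18687 genes past the minimum. Cdkn1c, the cell cycle inhibitor p57, had 126 and 236 counts, or 1.23 and 3.75 CPM, and was 3.04-fold higher with acupuncture (2.44 to 3.80). Kcnq1ot1 itself had 740 and 313 counts, or 7.25 and 4.97 CPM, and was 1.46-fold lower (1.28 to 1.67). The Cdkn1c to Kcnq1ot1 count ratio was 0.170 in the inhibitor-only library and 0.754 with acupuncture, 4.43-fold higher (3.41 to 5.76).

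The other maternally expressed genes of that cluster did not go with Cdkn1c. Kcnq1, a potassium channel subunit, had 477 and 149 counts and was 1.97-fold lower (1.64 to 2.39). It overlaps Kcnq1ot1 on the opposite strand, and since the strand setting of the counting is not given, reads of this pair cannot be told apart. Slc22a18, a membrane transporter, had 517 and 206 counts and was 1.55-fold lower (1.31 to 1.83). Cd81, a tetraspanin of many cell surfaces that is imprinted in the placenta, had 19275 and 8422 counts and was 1.41-fold lower (1.37 to 1.45). Phlda2, which limits placental growth, had 896 and 531 counts and stood at 0.962 times (0.862 to 1.07). Ascl2, a transcription factor of trophoblast and intestinal stem cells, had 27 and 11 counts, and its interval (0.296 to 1.38 times) includes 1. Cdkn1c was the member of this cluster at the higher level with acupuncture. Of the other 6, 4 had intervals wholly below 1, against 34.8% of all genes. With scaling to the epithelial markers those 4 lay closer to 1, with Kcnq1 at 0.691 times, Slc22a18 at 0.882, Kcnq1ot1 at 0.936 and Cd81 at 0.967. Phlda2 then stood at 1.31 times and Cdkn1c at 4.14 times.

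Plagl1 encodes a zinc finger transcription factor, is expressed from the paternal copy and is known to regulate other imprinted genes. It had 348 and 532 counts, or 3.41 and 8.46 CPM, 2.48-fold higher (2.16 to 2.85). Its promoter, printed above, held 1 hexamer and 26 CG dinucleotides. Zdbf2 had 8 and 28 counts, or 0.0784 and 0.445 CPM, 5.68-fold higher (2.52 to 14.4). Nap1l5, a retrogene related to nucleosome assembly proteins, had 12 and 20 counts, or 0.118 and 0.318 CPM, 2.70-fold higher (1.26 to 6.07). These last 2 ratios rest on few reads, and both genes drop out when the combined count minimum is 100.

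On the cluster of Peg10 and Sgce, all 3 members had ratios above 1, as had 9354 of the 18687 genes past the minimum. Peg10, derived from a retrotransposon and needed for placenta formation, had 149 and 206 counts, or 1.46 and 3.27 CPM, 2.24-fold higher (1.81 to 2.79). Its divergent neighbour Sgce, the muscle membrane protein epsilon-sarcoglycan, had 682 and 660 counts, or 6.68 and 10.5 CPM, 1.57-fold higher (1.41 to 1.75). Asb4, the maternally expressed member, had 321 and 224 counts and stood at 1.13 times (0.950 to 1.35). The Asb4 to Peg10 count ratio was 2.15 and 1.09, or 1.98-fold lower with acupuncture (1.50 to 2.62).

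**Figure D3:**
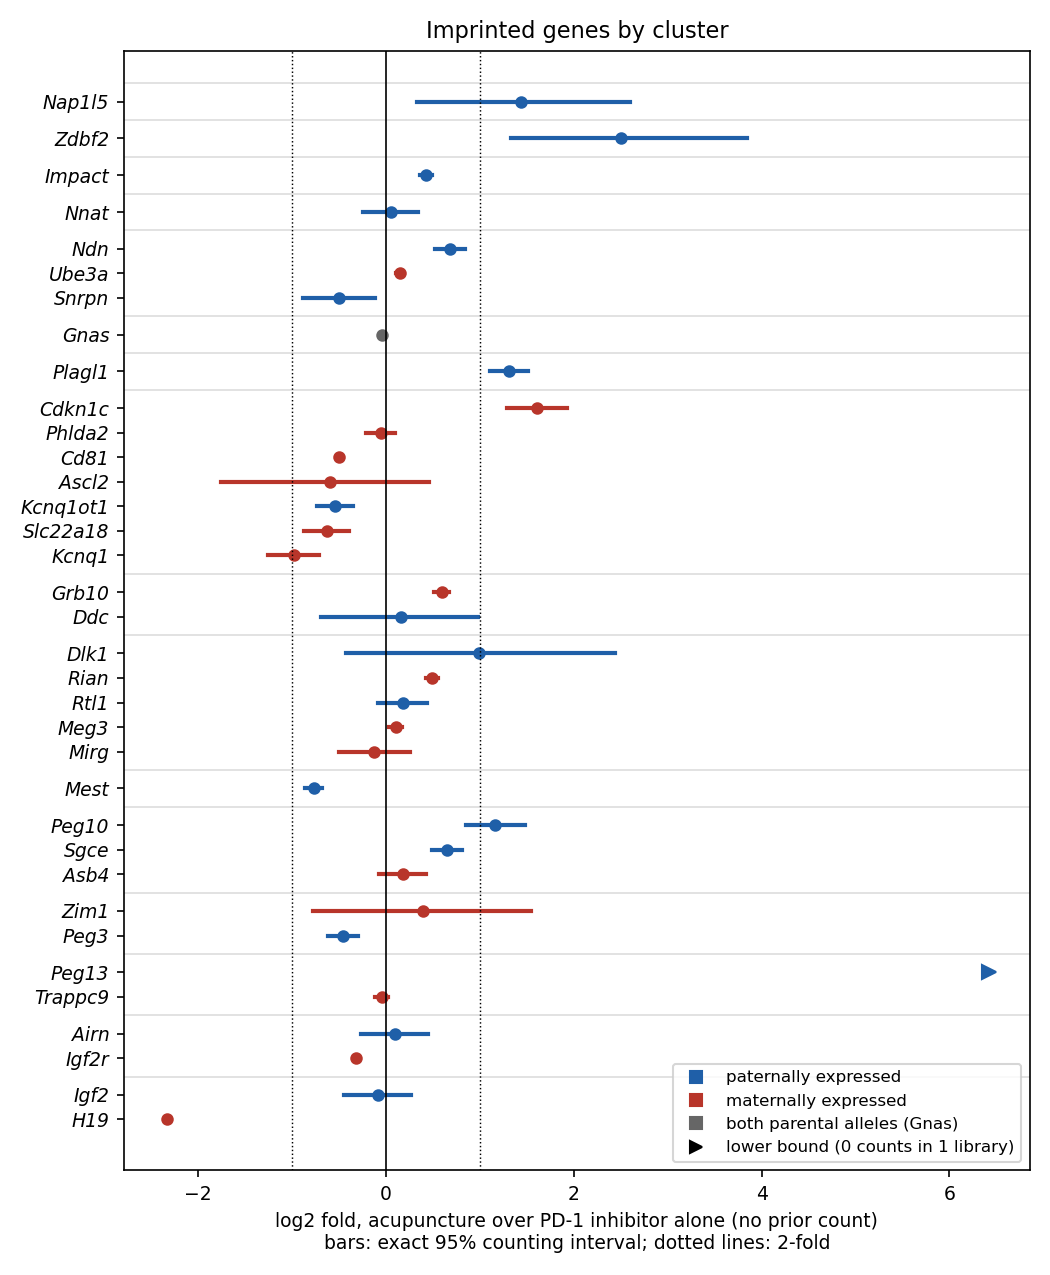
Fold on a log2 axis, acupuncture over inhibitor only, for each imprinted gene past the count minimum, grouped by cluster between grey lines, with exact 95% counting intervals as bars and the 2-fold limits dotted. Cdkn1c stands apart from its cluster and H19 from Igf2, whereas the points of the 5 genes of the Dlk1 and Meg3 cluster lie between the limits under TMM scaling, with Dlk1 next to the upper one. Peg13 is drawn as a lower bound.

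The cluster of Dlk1 and Meg3 held 5 members of the set, all within 2-fold under TMM scaling. Its maternally expressed noncoding RNAs were Meg3 with 4387 and 2903 counts, Rian with 4015 and 3472 and Mirg with 166 and 94. Rian and Mirg host small nucleolar RNAs and microRNAs. In CPM, Meg3 stood at 43.0 and 46.1, 1.07-fold higher (1.02 to 1.13), Rian at 39.3 and 55.2, 1.40-fold higher (1.34 to 1.47), and Mirg at 1.63 and 1.49, with an interval of 0.706 to 1.19 times. The paternally expressed Dlk1, a membrane protein that holds back fat cell formation, had 9 and 11 counts. Rtl1, a retrotransposon-derived gene of placenta and muscle, had 304 and 212 counts and stood at 1.13 times (0.945 to 1.35). None of the 5 was listed, but Dlk1, at 1.98-fold, was past 2-fold with scaling by total counts (2.13-fold) or the upper quartile (2.02-fold), and was listed as higher with scaling to the epithelial markers (2.70-fold). Dlk1 was near the limit of detection in both libraries while Meg3 was not.

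Igf2r, which carries IGF2 to lysosomes for degradation, had 36807 and 18215 counts, or 360.5 and 289.5 CPM, 1.25-fold lower (1.22 to 1.27), but 1.09-fold higher with scaling to the epithelial markers. Airn, the paternal noncoding RNA that silences it and overlaps it on the opposite strand, had 169 and 111 counts and stood at 1.07 times (0.831 to 1.36). Reads of this pair also cannot be told apart. The Igf2r to Airn count ratio was 1.33-fold lower with acupuncture (1.03 to 1.70). Grb10, an adaptor that restrains insulin and IGF1 receptors, had 2889 and 2685 counts, or 28.3 and 42.7 CPM, 1.51-fold higher (1.43 to 1.59). Its neighbour Ddc, the decarboxylase that makes dopamine and serotonin, had 32 and 22 counts, and its interval (0.618 to 1.98 times) includes 1.

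In the Snrpn and Ube3a cluster, Ndn, which encodes the growth-restraining protein necdin, had 669 and 662 counts, or 6.55 and 10.5 CPM, 1.61-fold higher (1.44 to 1.79). Ube3a, a ubiquitin ligase imprinted in neurons, had 11033 and 7528 counts and was 1.11-fold higher (1.07 to 1.14). Snrpn, a spliceosome protein gene, had 190 and 83 counts and was 1.41-fold lower (1.08 to 1.85). Snrpn shares a transcript with Snurf and the split of reads between them is uncertain. Their summed counts, 457 and 428, turned the direction, at 1.52-fold higher (1.33 to 1.74). The Ube3a to Snrpn count ratio was 58.1 and 90.7, or 1.56-fold higher (1.20 to 2.05), but with the summed counts it was 24.1 and 17.6, or 1.37-fold lower (1.20 to 1.57).

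Mest, an enzyme of the alpha/beta hydrolase fold that is induced when fat tissue expands, had 3626 and 1311 counts, or 35.5 and 20.8 CPM, 1.70-fold lower with acupuncture (1.60 to 1.82). Adipocyte markers were higher in the library with acupuncture, where Mest was lower. Peg3, a zinc finger gene, had 1047 and 471 counts and was 1.37-fold lower (1.23 to 1.53), and its maternally expressed neighbour Zim1 had 16 and 13 counts. Impact, which restrains a kinase of the amino acid stress response, had 4399 and 3633 counts and was 1.34-fold higher (1.28 to 1.40). Nnat, a small membrane protein of brain and fat, had 255 and 163 counts and stood at 1.04 times (0.847 to 1.27). Gnas, the stimulatory G protein subunit, had 61524 and 36871 counts, or 603 and 586 CPM, at 0.972 times (0.960 to 0.985). These genes all lay within 2-fold.

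In the pairs of oppositely imprinted neighbours, Trappc9, Zim1, Asb4, Ddc and Ube3a are imprinted in certain tissues only, and no allele was measured. Across the 9 pairs, the maternal to paternal count ratio could be formed in both libraries for 8. Its interval excluded 1 for 5 of them. Intervals of single genes excluded 1 for 35.1% of all genes on the higher side and 34.8% on the lower. No share was formed over other gene pairs, so the count of 5 supports nothing by itself. Among the 5, the ratio was lower with acupuncture for H19 to Igf2, Asb4 to Peg10 and Igf2r to Airn. It was higher for Cdkn1c to Kcnq1ot1 and Ube3a to Snrpn. The direction of the last pair turned, to 0.729 times, when the counts of Snurf were added to Snrpn. H19 to Igf2 and Cdkn1c to Kcnq1ot1 went in opposite directions. For Meg3 to Dlk1 (0.198 to 1.44 times), Zim1 to Peg3 (0.792 to 4.04) and Grb10 to Ddc (0.759 to 2.45) the intervals include 1 and are wide, since 1 gene of each pair had few counts. Trappc9 to Peg13 was 88.04-fold lower with acupuncture when Peg13 was set to 3 counts where it had 0. Strand cannot tell reads of that pair apart where the genes overlap.

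**Figure D4:**
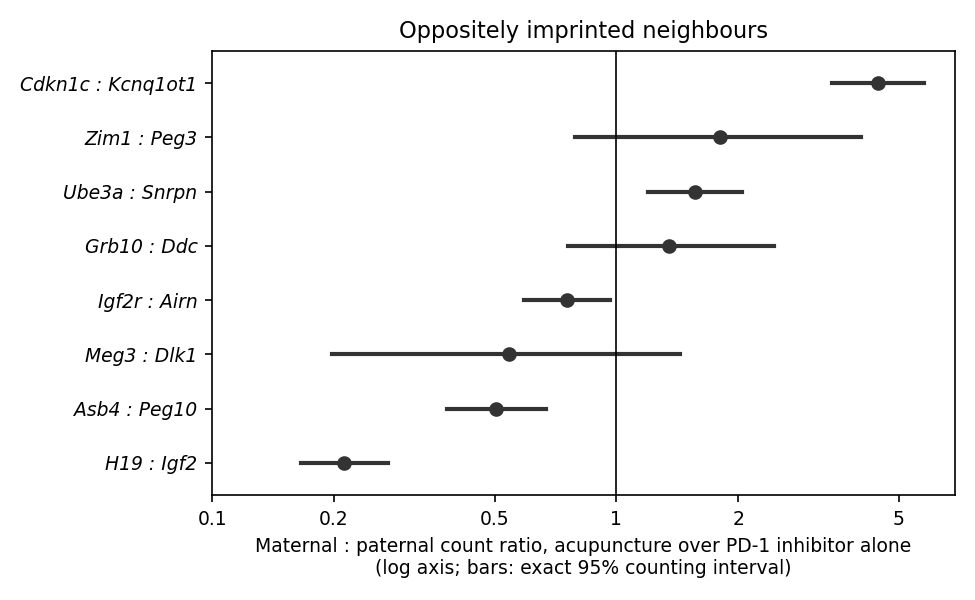
Maternal to paternal count ratio for 8 pairs of oppositely imprinted neighbours, acupuncture over inhibitor only, on a log axis with exact 95% counting intervals as bars. H19 to Igf2 at 0.212 and Cdkn1c to Kcnq1ot1 at 4.43 lie farthest from 1, in opposite directions. Ube3a to Snrpn is drawn without the counts of Snurf, which turn it from 1.56 to 0.729.

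Genes around the imprinted set were taken from 3 further lists. Of 29 other imprinted genes past the minimum, 4 were higher (13.8%, against 9.21% of all genes) and 2 lower (6.90%, against 4.90%), with a median log2 ratio of -0.03. With scaling to the epithelial markers 8 were higher and 0 lower, against 16.6% and 2.24% of all genes, with Mkrn3, Atp10a, Zrsr1 and Qpct added. The organic cation transporter Slc22a3, a neighbour of Igf2r, had 79 and 271 counts and was 5.57-fold higher (4.32 to 7.25). Tspan32, a blood cell tetraspanin in the cluster of Cdkn1c, had 85 and 232 counts and was 4.43-fold higher (3.44 to 5.75), in the library where B cell markers were also higher. The amino acid transporter Slc38a4 was 2.10-fold higher (1.74 to 2.54). Dio3, which inactivates thyroid hormone and lies in the cluster of Dlk1, had 225 and 62 counts and was 2.24-fold lower (1.68 to 3.01), and the exchange factor Rasgrf1, with 40 and 11 counts, was 2.24-fold lower (1.13 to 4.84). Both were 1.64-fold lower with scaling to the epithelial markers, short of the limit. The most abundant of the list, H13, stood at 0.820 times (0.801 to 0.840).

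Of 15 IGF pathway genes past the minimum, 3 were higher (20%, against 9.21% of all genes), 2 lower (13.3%, against 4.90%) and 10 between. Igf1, the circulating growth factor that acts on the same receptor as IGF2, had 1927 and 2778 counts and was 2.34-fold higher (2.21 to 2.48). The binding proteins went both ways, with Igfbp5 at 4.44-fold higher (4.19 to 4.72), Igfals at 5.24-fold higher (3.21 to 8.87) and Igfbp2, with 333 and 27 counts, at 7.60-fold lower (5.13 to 11.7). Igfbp4, the most abundant, stood at 0.671 times (0.665 to 0.678). Igf2bp1, which binds Igf2 and H19 RNA, had 1126 and 328 counts and was 2.12-fold lower (1.87 to 2.40), or 1.97-fold when scaled by total counts and 1.55-fold when scaled to the epithelial markers, both short of the limit.

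Among 15 imprint machinery genes, which set, keep or remove imprints, 1 was listed as lower (6.67%, against 4.90% of all genes). None was listed as higher, and their median log2 ratio was -0.05. Dnmt3l, the cofactor that helps lay down imprints in germ cells, had 114 and 27 counts and was 2.60-fold lower (1.70 to 4.12), or 1.91-fold with scaling to the epithelial markers, short of the limit. Trim28, the most abundant and the corepressor that ZFP57 recruits, stood at 0.771 times (0.759 to 0.784). Zfp57, named here for its hexamer after its values were seen, had 927 and 597 counts and stood at 1.04 times (0.941 to 1.16).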

How the data were processed

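Messenger RNA of breast tumour tissue was sequenced from 2 libraries, 1 per group. The authors deposited raw counts per gene symbol. Per the labels' protocols, libraries were made with a SMARTer kit, and the submitters' processing notes name the builds GRCm39 and mm39. Neither aligner, counter nor strand setting is given in the sources used here. RefSeq and GENCODE M21 positions are on GRCm38 and were not used to count.

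TMM factors from edgeR 4.0.16 (R 4.3.3), over genes whose libraries summed to 20 counts or more, were 0.966 and 1.04. Log2 ratios carry a prior count of 2. Intervals are Clopper-Pearson for folds and exact conditional for count ratios. Exon lengths are GENCODE M21 unions for all 37 members. Without molecular identifiers, reads may be copies of 1 molecule, so intervals cover counting error only. The calculation was tested on simulated data.

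The members and lists were chosen with earlier results of these data known. All members are accounted for. Of each further list, the most abundant gene and up to 5 listed genes with the largest log2 ratio in size are named. Of the 10 marker lists, endothelial markers had 1 of 8 lower and Schwann cell markers 1 of 8 higher, against 4.90% and 9.21% of all genes. By interval alone, 7 of 8 endothelial markers were lower, against 34.8% of all genes, and their levels summed to 263 and 187 CPM. Alternatives were other scalings (total counts, DESeq2 1.42.0 size factors, upper quartile), a prior count of 0.5 or 5, a minimum of 1 or 100 counts, a limit of 4-fold and folds without intervals. Scaling to the epithelial list and the sum of Snrpn and Snurf were added after the data were seen. Scripts used scipy 1.17.1, numpy 2.4.6 and pandas 2.3.3 in Python 3.11.15, and figures were drawn with matplotlib 3.10.9.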

Additional observations from a re-analysis of the deposited data

How the results depend on the processing

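Scaling by total counts moved the median log2 ratio of all genes by 0.10 and that of the members from 0.10 to 0.20, and DESeq2 size factors and the upper quartile moved that of all genes by -0.02 and 0.02. Under these 3 scalings the 6 members listed as higher and H19, listed as lower, kept their calls. With DESeq2 size factors 2 members were lower, the second being Kcnq1, just past the limit. With the epithelial list at a median of 0, which raised the median of all genes by 0.44, 10 members were higher, adding Sgce, Dlk1, Grb10 and Ndn. The member median was then 0.55, the paternal median 0.75, the maternal median 0.40 and the count of imprint machinery genes listed 0. The ratio crossed 1 for 4 members under total counts (Igf2, Trappc9, Phlda2 and Gnas) and for 6 under the epithelial scaling (these with Igf2r and Mirg), none of them listed. Under the epithelial scaling the other imprinted genes gained 4 higher calls and lost both lower ones, Dio3 and Rasgrf1. Adding Snurf counts to Snrpn turned the Ube3a to Snrpn ratio from 1.56 to 0.729. With a 4-fold limit 2 members were higher (Peg13 and Zdbf2), against 3.63% of all genes higher and 1.40% lower. At that limit 2 other imprinted genes, 3 IGF pathway genes and 0 imprint machinery genes were listed. With a minimum of 100, 4 members were higher, against 6.92% of all genes, the member median was 0.05 and the paternal median 0.13. No paired analysis was possible because each group had 1 library. Depth limits Dlk1, Zdbf2, Nap1l5, Zim1, Ddc and Ascl2, whose intervals are wide.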

Other observations

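Some neighbours of the imprinted genes lay outside the lists and were chosen after their values were seen. Snurf, encoded upstream of Snrpn in a shared transcript, had 267 and 345 counts and was 2.10-fold higher with acupuncture (1.78 to 2.47). Snhg14, the noncoding RNA that runs from there towards Ube3a, had 173 and 182 counts and was 1.71-fold higher (1.38 to 2.11).

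Nctc1, a muscle noncoding RNA downstream of H19, had 13 and 128 counts and was 15.98-fold higher (9.02 to 30.8), in the library where H19 was lower and skeletal muscle markers were higher. Of the genes near Peg13, Ago2 was 1.71-fold lower with acupuncture, at 8455 and 3052 counts, Chrac1 stood at 0.822 times (0.787 to 0.858), and the potassium channel gene Kcnk9 had 6 and 0 counts.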
